A study of Homo sapiens with 8 samples.

Results

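Colo357, an established human pancreatic cancer line, was profiled once untreated and once after 72 h with the anti-CD24 monoclonal antibody SWA11 at a dilution of 1 to 40. These are 2 of the 8 arrays of the study, chosen by their labels. The other 6 hold the colorectal cancer line HT29, as untreated cells, cells given the same antibody for the same time, a clone with a GFP-directed shRNA, a clone with 1 vector carrying a CD24-directed shRNA, and a pair of clones with 2 such vectors. Each array measured total RNA on an Affymetrix human GeneChip. No array with a control antibody was analysed here, so antibody binding and the addition of any antibody cannot be told apart. With 1 array a side, a difference within Colo357 has no replicate error, and the counts below describe these 2 arrays. The labels do not say whether arrays came from separate cultures.

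CD24 is a short, heavily glycosylated protein held in the outer membrane leaflet by a lipid anchor. It has no cytoplasmic part of its own, it binds P-selectin and the inhibitory receptor Siglec-10, and it is abundant on many carcinomas, pancreatic cancer among them. The genes below belong to several routes. In the integrated stress response, kinases that sense amino acid shortage, unfolded protein or viral RNA slow translation and raise the transcription factor ATF4, which drives ATF3 and DDIT3 (CHOP). In the EGFR to ERK route, ligands such as HBEGF, TGFA and EREG are cut from the membrane, the ERK kinases switch on immediate-early genes, and phosphatases of the DUSP family shut the kinases off. NF-kB switches on TNF, IL1B, CXCL8 and its own brake TNFAIP3.

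The 2 Colo357 arrays had the same trimmed mean, 250.1, and median intensities of 56.5 (untreated) and 50.3 (antibody). Their log2 values correlated at 0.94 across 22215 probe sets. The 3' to 5' signal ratio was 1.12 and 1.14 for ACTB and 0.878 and 0.852 for GAPDH. The bacterial poly-A transcripts that are spiked into the RNA before labelling differed: their 24 probe sets read a median 3.09 times as high on the antibody array (1.54 to 6.07), while the 18 probe sets of the hybridisation controls read 0.725 times as high (0.60 to 0.892). In HT29 the corresponding ratios were 1.91 and 0.996. The part of the spike difference in the gene differences was not tested.

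Both arrays carried the profile of an epithelial line. All 9 epithelial markers lay above the intensity filter, with summed intensities of 41421.9 untreated and 38806 with antibody, and KRT18 was the brightest (13073 and 11142.9). Of 6 pancreatic ductal markers, 4 lay above it (SOX9, KRT7, KRT19 and MUC1), while CFTR was at 1.5 and 2.7 and ONECUT2 at 11.4 and 23.4. None of 7 leukocyte, 6 endothelial or 5 pancreatic endocrine markers passed it, and 2 of 7 fibroblast markers did (COL1A1 and LUM). The summed leukocyte markers read 63.6 and 59.4. Of 6 acinar markers only the trypsinogen gene PRSS2 passed, at 102.2 untreated and 339.5 with antibody.

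CD24 transcript itself was nearly level between the arrays. Its 6 probe sets read 742.1 untreated and 1104 with antibody, 344.5 and 472.7, 1896.6 and 1908.4, 474.6 and 340.5, 2038.7 and 1848.9, and 531.7 and 664.6. On the scale log2(intensity + 10), used for all log2 differences here, the antibody array was higher for 4 probe sets and lower for 2, from -0.47 to 0.57 with a mean of 0.12. In HT29 the mean over the same probe sets was -0.41. The limma fit over both lines gave an adjusted p of 0.506 for the brightest CD24 probe set, with a log2 difference of -0.40 (SE 0.33).

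Across the transcriptome, 6829 of 11963 genes had a mean above the median probe set (an intensity of about 53.7), each represented by its brightest single-gene probe set. The antibody array was at least 2-fold higher for 720 of them (10.5%) and at least 2-fold lower for 867 (12.7%), together 1587 genes (23.2%). At 4-fold the counts were 86 and 116, so the lower side held more genes, and at 8-fold 24 and 9, where the higher side did. The median over all genes was -0.03, with quartiles of -0.60 and 0.53. Centring the arrays on their medians moved that value by 0.14 and turned the split to 941 higher and 670 lower, 58.4% higher in place of 45.4%. The 2-fold line ran through a continuous range, with UTP3 at 1.00 and EIF3H at -1.0 just inside it and MRPL49 at 0.997 and SGCE at -0.999 just outside.

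**Figure D1:**
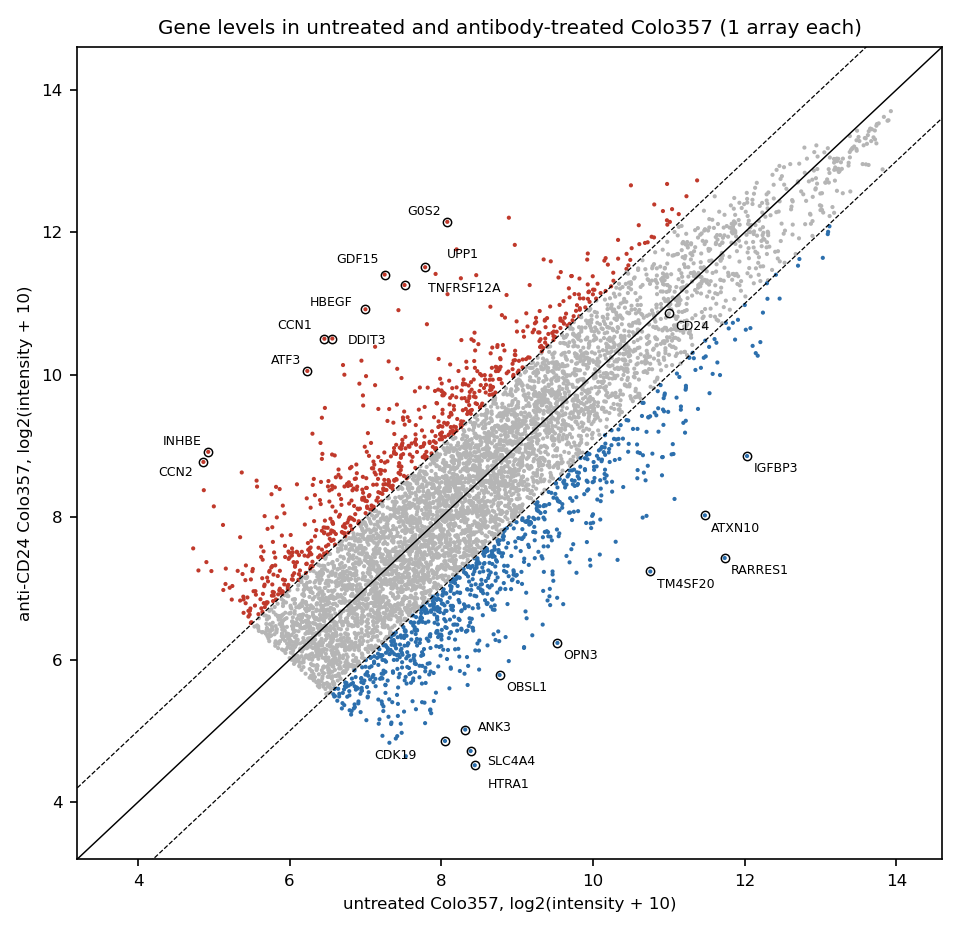
Each point is 1 of the 6829 genes above the filter, with its log2(intensity + 10) in untreated Colo357 on the x axis and in antibody-treated Colo357 on the y axis, 1 array each. The solid line marks equal values and the dashed lines 2-fold differences; red points (720) are at least 2-fold higher with antibody, blue points (867) at least 2-fold lower, and the circled genes are the 10 largest differences each way and CD24, which lies near the line.

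GDF15, a secreted stress cytokine, read 142.4 untreated and 2702.5 with antibody, the largest log2 difference above the line (4.15). Its second probe set was near the floor on both arrays (0.5 and 5.1). DDIT3, the pro-apoptotic transcription factor CHOP, read 84.5 and 1445.1 (3.94), and ATF3, its partner in the stress response, 65.2 and 1051.8 (3.82). INHBE, an activin subunit gene that the same response drives, read 20.4 and 473.3 (3.99).

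CCN1 and CCN2, matricellular proteins that are standard targets of the Hippo co-activator YAP, read 77.9 and 1442.7 (4.05) and 19.1 and 428 (3.91). HBEGF, a membrane-anchored EGFR ligand, read 117.9 and 1925 (3.92). Also among the 15 furthest above were G0S2, an inhibitor of lipolysis (260.2 and 4520.9), TNFRSF12A, the receptor of TWEAK (172.8 and 2440), and UPP1, a uridine phosphorylase (210.7 and 2903.7). PLAU, the urokinase protease, read 284.1 and 3456.6, and TNF 19.2 and 322.8. PHLDA1 was at 232.8 and 2719.3, with its 5 probe sets spread from 0.71 to 3.77, and the ERK phosphatase DUSP5 at 94.2 and 1114.9.

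Furthest below the line was RARRES1, a membrane protein induced by retinoids, which read 3398.9 untreated and 162 with antibody (-4.31). HTRA1, a secreted serine protease, read 337.3 and 12.9 (-3.92). SLC4A4, a bicarbonate cotransporter of pancreatic duct cells, read 324.5 and 16.3 (-3.67), and its 3 dimmer probe sets were lower by smaller amounts (-1.04 to -1.28). TM4SF20, a tetraspan protein, read 1717.5 and 140.9. IGFBP3, which binds insulin-like growth factors outside the cell, read 4171.2 and 453.9 (-3.17). The other genes of the lowest 15 were ATXN10 (2834.8 and 250.5, with a second probe set at -1.83), the membrane adaptor ANK3 (308.3 and 22.4), the opsin OPN3 (729.1 and 65.3), the Mediator kinase CDK19 (254.6 and 19), OBSL1 (425.8 and 45.1), the RNA demethylase FTO (534.7 and 61.7), CPNE1 (1270.6 and 158.9), SPG11 (535.1 and 62.3), the lipogenic factor SREBF1 (463.9 and 53.1) and GMDS (175 and 15), which makes GDP-fucose.

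The single group with 2 arrays is the pair of HT29 clones with 2 vectors. Those arrays had ACTB 3' to 5' ratios of 1.77 and 1.06 and 18S rRNA signals of 434.8 and 26.6. A test of the Colo357 differences exists only if the lone Colo357 arrays are taken to vary like that pair. Under that assumption limma, fitted over all 8 arrays with 1 mean per group and Benjamini-Hochberg adjustment, called 30 of 6829 genes: 21 rose (0.308%) and 9 fell (0.132%). The fit gave every gene the same SE of 0.85, so the call amounts to a log2 difference beyond about 3.15, the value of IL1B (adjusted p 0.0462). RARRES1 had the smallest adjusted p, 0.00261. Those that rose include the genes above the line named so far, with PHLDA2, FOSL1, SPHK1, ZBED2, APOBEC3B and IL1B, and RARRES1, HTRA1, SLC4A4, TM4SF20, ATXN10, ANK3, OPN3, CDK19 and IGFBP3 fell. Without the intensity filter no gene passed (308 higher and 259 lower at an unadjusted p under 0.05), and after quantile normalization 89 did.

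Genes with several probe sets give a second reading from the same RNA and array. Of 2187 genes with at least 2 probe sets above the filter, all probe sets were 2-fold higher for 123 (5.62%) and 2-fold lower for 191 (8.73%), against 199 and 317 by the brightest probe set alone. The probe sets lay on one side of 0 for 1755 genes and on both sides for 431. The median range within a gene was 0.35, and for 207 genes the range passed 1. Only ARPP19, HNMT, NEFL, NUP98 and SYNJ2 had probe sets 2-fold apart in both directions.

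Ranked by their smallest probe set difference, the genes furthest above were HBEGF (3.54 and 3.92), CCN1 (3.42 and 4.05), PLAU (3.31 and 3.56), IL1B (3.15 and 3.25) and PPP1R15A (2.88 and 3.35), the phosphatase subunit that ends the stress-induced block on translation. IL1R2, a decoy receptor for interleukin 1, read 118.6 and 999.7. TFPI2, an inhibitor of serine proteases, read 115.3 and 748.5, TNFAIP3 167.8 and 981.2, and the matrix protein THBS1 75.9 and 441.3. After them came the heme enzyme UROD (641.8 and 3132.5), the BH3-only protein PMAIP1 (69.8 and 361.3), STC2 (69 and 340.3), the neutrophil chemokine CXCL8 (563.6 and 2439.2), NSUN5P1 (334 and 1413.5) and the small MAF protein MAFF (490.7 and 3610.5). Every probe set of these 15 genes that passed the filter was at least 4-fold higher with antibody.

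On the other side, the 3 RARRES1 probe sets lay between -4.58 and -3.61 and the pair for IGFBP3 at -3.17 and -3.43. They were followed by OBSL1, EFR3A, FGB (fibrinogen beta chain, 306.3 and 45.8), HGD (homogentisate dioxygenase, 1248.8 and 191.5), MTUS1 (769.4 and 99.8), USH1C, PHIP, the insulin-degrading enzyme IDE (636.1 and 80), ADD3 (815.9 and 154.9, 4 probe sets from -3.01 to -2.32), SPDEF, PHF3, PDE6D and SMC4. SPDEF, a factor of secretory epithelium, read 313.5 and 55.6. OBSL1 and PHF3 each had a dim probe set that was slightly higher, at 0.38 and 0.45.

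**Figure D2:**
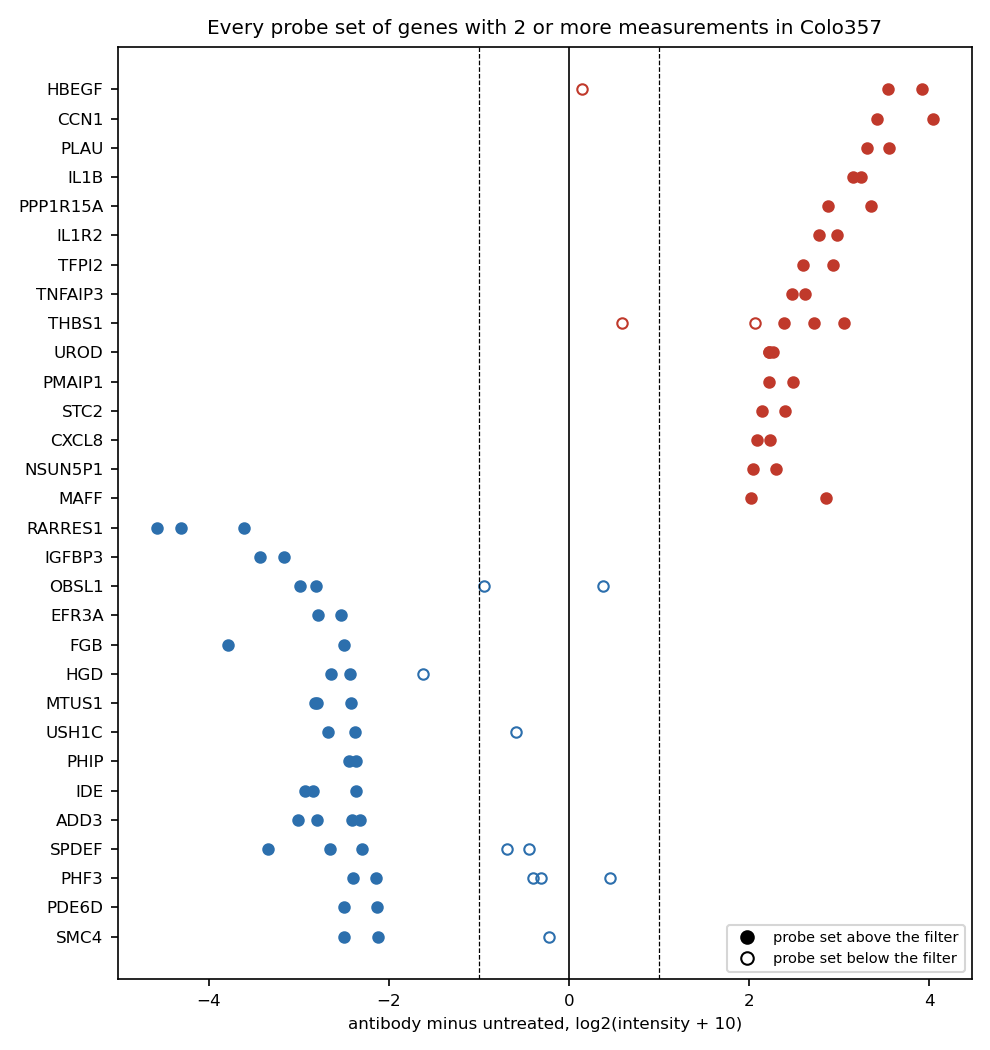
For the 15 genes each way with the largest smallest difference over their probe sets, each dot is 1 probe set and the x axis gives antibody minus untreated Colo357 on the log2(intensity + 10) scale. Filled dots passed the intensity filter and open dots did not; the filled dots of HBEGF to MAFF all lie above 2 and those of RARRES1 to SMC4 below -2, while open dots lie nearer 0.

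Promoters of 6 of the higher genes are printed because each holds the letters of a well-known element of a route named above; they were picked after the matches were seen. The sequences are the 250 bases before the RefSeq start (GRCh38.p14), 5' to 3' on the gene's strand, with matched letters in capitals.
DDIT3 promoter, chr12:57520515-57520764, minus strand: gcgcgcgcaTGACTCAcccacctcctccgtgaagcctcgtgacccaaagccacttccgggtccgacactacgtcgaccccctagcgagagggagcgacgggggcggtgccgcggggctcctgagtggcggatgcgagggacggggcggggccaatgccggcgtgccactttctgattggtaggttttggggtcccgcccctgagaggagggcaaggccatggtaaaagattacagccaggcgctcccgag
PPP1R15A promoter, chr19:48872171-48872420, plus strand: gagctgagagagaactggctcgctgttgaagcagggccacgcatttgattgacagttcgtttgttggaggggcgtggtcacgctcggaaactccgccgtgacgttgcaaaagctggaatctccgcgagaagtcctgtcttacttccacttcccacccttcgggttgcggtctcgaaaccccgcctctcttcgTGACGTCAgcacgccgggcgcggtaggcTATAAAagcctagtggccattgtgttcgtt
EGR1 promoter, chr5:138465229-138465478, plus strand: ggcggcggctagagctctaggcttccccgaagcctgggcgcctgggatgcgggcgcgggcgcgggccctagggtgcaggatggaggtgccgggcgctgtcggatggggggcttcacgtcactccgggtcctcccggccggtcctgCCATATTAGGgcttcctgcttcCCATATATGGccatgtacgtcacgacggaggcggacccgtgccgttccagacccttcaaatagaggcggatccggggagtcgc
CXCL8 promoter, chr4:73740319-73740568, plus strand: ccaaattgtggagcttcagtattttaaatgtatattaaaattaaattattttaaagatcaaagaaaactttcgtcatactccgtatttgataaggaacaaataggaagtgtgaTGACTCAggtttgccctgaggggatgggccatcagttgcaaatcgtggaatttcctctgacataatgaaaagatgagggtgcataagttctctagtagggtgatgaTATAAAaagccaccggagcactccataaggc
TNFAIP3 promoter, chr6:137867009-137867258, plus strand: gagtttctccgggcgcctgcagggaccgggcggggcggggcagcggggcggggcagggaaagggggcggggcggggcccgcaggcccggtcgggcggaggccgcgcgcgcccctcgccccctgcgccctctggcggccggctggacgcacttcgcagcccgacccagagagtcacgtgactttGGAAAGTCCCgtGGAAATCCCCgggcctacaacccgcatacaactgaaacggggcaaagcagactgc
CCN2 promoter, chr6:131951373-131951622, minus strand: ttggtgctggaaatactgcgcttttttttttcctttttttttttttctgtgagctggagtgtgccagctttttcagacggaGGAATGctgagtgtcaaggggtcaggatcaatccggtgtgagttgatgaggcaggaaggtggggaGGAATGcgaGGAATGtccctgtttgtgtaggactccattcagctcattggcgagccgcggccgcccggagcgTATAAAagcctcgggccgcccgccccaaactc
In DDIT3 the capitals mark an AP-1 motif (TGANTCA), in PPP1R15A a cyclic AMP response element (TGACGTCA) and a TATA box (TATAAA), and in EGR1 a pair of CArG boxes, the element read by serum response factor. In CXCL8 they mark an AP-1 motif and a TATA box, in TNFAIP3 a pair of NF-kB motifs, and in CCN2 3 TEAD motifs (GGAATG) and a TATA box. The levels that go with them were 84.5 and 1445.1 for DDIT3, 148.1 and 1155.4 for PPP1R15A, 44.6 and 222.1 for EGR1, 563.6 and 2439.2 for CXCL8, 167.8 and 981.2 for TNFAIP3 and 19.1 and 428 for CCN2.

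The same letters were searched in the promoters of the 5714 genes above the filter that the RefSeq table holds. Both strands were searched, except for TATA letters, which were searched on the gene's strand only. AP-1 letters were in 5.57% of 574 genes 2-fold higher, 3.14% of 732 genes 2-fold lower, 3.61% of 4408 genes at neither, 12.0% of the 100 highest, 7.0% of the 100 lowest and 6.6% of all 27305 promoters. TATA letters were in 7.14%, 3.96%, 3.11%, 13.0%, 4.0% and 7.17% of the same sets. The cyclic AMP element was in 4.01%, 2.05%, 3.45%, 5.0%, 3.0% and 1.77%, and the NF-kB motif in 2.09%, 1.23%, 1.32%, 3.0%, 0.0% and 0.963%. CArG boxes were in 1.92%, 0.546%, 0.998%, 4.0%, 0.0% and 1.14%. TEAD letters were in 8.36%, 10.8%, 8.62%, 12.0%, 8.0% and 11.9%, with no test of the order. Median GC content was 64.4%, 65.0% and 65.2% in the first 3 sets. These are shares of letters in a window and mark no bound site.

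Each list count below stands against the shares over all genes above the filter, 10.5% higher and 12.7% lower. The list of integrated stress response genes had 35 members above the filter, of which 13 were 2-fold higher and 2 lower, with a median of 0.56. Its highest members were transcription factors and secreted or feedback products: GDF15, INHBE, DDIT3, ATF3 and PPP1R15A, then STC2 (69 and 340.3) and the glutathione-degrading CHAC1 (181 and 642.8). TRIB3, an inhibitor that DDIT3 induces, read 1676.3 and 3703.8, the death receptor TNFRSF10B 439.2 and 1357.1, and NUPR1 370.4 and 1009.7. ATF4 itself was at 3596.2 and 5307.3 (0.56). Genes of amino acid supply ranged on both sides of 0, with the neutral amino acid transporter SLC1A4 at 166.8 and 446 (1.37), ASNS, asparagine synthetase, at 1777.1 and 2992.1 (0.75), PSAT1 at 667.4 and 710.5 (0.09) and the leucine transporter SLC7A5 at 6326.1 and 3994.8 (-0.66). The cystine transporter SLC7A11 (1083.1 and 356.7) and the cysteine-making enzyme CTH (495.2 and 180.5) were the 2 lower members.

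Among 16 cytosolic tRNA synthetases, only some of which are ATF4 targets, 3 were 2-fold higher (FARSA, WARS1 and HARS1) and 3 lower (IARS1, EPRS1 and RARS1). The list median was -0.12, which centring turned to 0.02. Chaperones of the endoplasmic reticulum, the targets of ATF6 and XBP1, gave 0 of 27 members higher and 4 lower, with a median of -0.26. HSPA5 (BiP), their reference gene, read 3772.5 and 3923.9 (0.06), and HSP90B1 2088.7 and 461.6, with its second probe set at -0.31. Heat shock genes, cytosolic and mitochondrial together, gave 1 of 19 higher, HSPB8 (156.5 and 564.9), and 4 lower, with a median of -0.29. The lowest of them was DNAJB6 (221 and 29.1).

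Immediate-early transcription factors had 11 of 22 members 2-fold higher and 2 lower, with a median of 1.00. After ATF3 the highest were FOSL1, an AP-1 subunit that accumulates under sustained ERK signalling (95.5 and 1013.8), MAFF and JUN (161 and 1074.2, 4 probe sets from 1.08 to 2.66). EGR1 read 44.6 and 222.1 and IER2 736.4 and 2625.8. NR4A2 (269.1 and 48.6) and BHLHE40 (1929.8 and 719.3) were the lower members.

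ERK output and feedback genes had 8 of 15 members 2-fold higher and 0 lower, with a median of 1.45. They include 4 dual-specificity phosphatases: DUSP5 (94.2 and 1114.9), DUSP4 (297.3 and 1424), DUSP6 (178 and 667, all 3 probe sets from 1.85 to 2.42) and DUSP7 (108.1 and 324.5). The receptor kinase EPHA2 read 390.6 and 1974.1 and the ERK inhibitor SPRY4 42.1 and 132.1. PHLDA2 read 464.3 and 4706.3, while its dim second probe set read 16.4 and 4.1.

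Genes of the EGFR family split by role. The ligands HBEGF, EREG (44.2 and 310), NRG1 (46.9 and 245.4) and TGFA (209.7 and 738.2, 3 probe sets from 0.98 to 1.77) were higher, and the receptors EGFR (406.9 and 98.5), ERBB2 (703.2 and 299.2) and ERBB3 (702 and 127.8) and the sheddase ADAM10 (540.7 and 206.2) were lower. That made 4 of 10 members higher and 4 lower. NRG1 rests on 1 probe set, as its 5 dim ones lay between -0.98 and -0.24 and a pseudocount of 1 turned the gene to -1.02. For EGFR both probe sets above the filter were lower (-1.94 and -0.98), and a dim one read 20.5 and 52.9 (1.04).

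NF-kB targets had 10 of 20 members 2-fold higher and 0 lower, with a median of 1.14. TNF and IL1B (22 and 274.3) were near the floor untreated. ICAM1, the leukocyte adhesion molecule, read 148.9 and 723, IL6 160.5 and 755.4 and CXCL8 563.6 and 2439.2. The NF-kB subunits RELB (80.8 and 335.1) and NFKB2 (248.3 and 827.7) were higher, while NFKB1 read 710.2 and 531.1 (-0.41) and the inhibitor NFKBIA 1262.6 and 1743 (0.46). The chemokine CXCL1 read 1973.6 and 1315.2 (-0.58).

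In the wider list of cytokines and growth factors, 12 of 33 members were 2-fold higher and 2 lower, with a median of 0.35. Beside those already given, DKK1, a secreted WNT antagonist, read 37.3 and 355.3, EDN1 (endothelin) 48.4 and 326.5 and BMP2 84.7 and 232.5. BMP7 (199.5 and 43.9) and TNFSF10 (TRAIL, 458.4 and 99.9) were lower, and the probe sets of each differed by over 1.

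Of 20 p53 target genes above the filter, 9 were 2-fold higher and 2 lower, with a median of 0.95. CDKN1A, the p21 inhibitor of cyclin-dependent kinases, read 342 and 2687.1 (2.94) and GADD45A 214.3 and 1663.3 (2.90). PMAIP1 (NOXA) read 69.8 and 361.3, the nuclease AEN 107.7 and 417.2 and the polo-like kinase PLK3 45.5 and 171.6. MDM2, the p53 ligase and itself a target, read 91.4 and 67.7 (-0.38), and CCNG1, cyclin G1, 1658.6 and 249.2 (-2.69). GDF15 and TNFRSF10B stand in both this list and that of the stress response.

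The BCL2 family had 4 of 14 members higher and 1 lower, with a median of 0.71. The pro-apoptotic members among them were PMAIP1, BIK (417.6 and 1355.6) and BAK1 (201.6 and 663.4). The survival gene BCL2L1 was also higher (265.9 and 756.8), while BNIP3L was lower (416.6 and 112.9). Caspase and death receptor genes gave 4 of 20 higher (TNFRSF12A, TNFRSF10B, CASP2 and FADD) and 0 lower. For CASP2 only 1 of 5 probe sets passed the filter, and they ranged from -0.10 to 1.80.

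Ligands that natural killer cells read through NKG2D were measured by 2 genes above the filter, MICB (129.7 and 914.6) and ULBP2 (191 and 860.8), both higher. MHC class I and antigen processing genes gave 3 of 16 higher and 0 lower: the peptide transporter TAP1 (251.1 and 828.1), HLA-E (1552.5 and 3637.7) and HLA-G (1776.9 and 3883). Probe sets of the HLA genes can read several near-identical members, so those values are uncertain. Interferon-stimulated genes had 6 of 27 members higher and 1 lower with a median of 0.04, led by ISG15 (295.9 and 2606.9), IFI27 (81.2 and 353.7), ISG20 (349 and 1368.5) and OASL (102.6 and 407.4), while the RNA-sensing kinase gene EIF2AK2 read 532.5 and 200.8. In HT29 the median of the same 27 was 0.86.

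Metallothioneins, the zinc- and copper-binding proteins, gave 5 of 8 list members higher, from MT1G (267.5 and 807.6) to MT1H (617.2 and 1409.9), with MT2A at 2097.4 and 5117.2. These genes are near-identical copies and most of their probe sets can read several of them. Without such probe sets no metallothionein stayed above the filter. The list median of -1.07 then rested on the non-metallothionein members SLC30A1 and MTF1, and MT1G read 10.6 and 2.5 (-0.72). The zinc exporter SLC30A1, in the same list, read 844 and 186.8 (-2.12).

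Hippo pathway genes above the filter were 16, with 5 higher and 0 lower and a median of 0.12. CCN1, CCN2, the tissue factor gene F3 (173.1 and 620), AMOTL2 (445.6 and 1286.2) and FJX1 (61.5 and 172.7) were the higher members. The other 11 lay within 2-fold, from WWTR1, the second co-activator beside YAP (0.77), to CRIM1 (-0.76), with YAP1 itself at 2124.8 and 1334 (-0.67). In the plasminogen system 4 of 14 members were higher and 0 lower: PLAU, its receptor PLAUR (447.8 and 1774.3), PLAT (166.4 and 409.6) and the trypsin inhibitor SPINK1 (25.7 and 145.2). Matrix proteases and their inhibitors gave 5 of 19 higher, led by MMP9 (68.8 and 566.7), and 2 lower, HTRA1 and ADAM10.

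Of 20 extracellular matrix genes, 7 were higher and 2 lower. LAMB3, a chain of the epithelial laminin that anchors hemidesmosomes, read 1437.1 and 6453.7, FN1 (fibronectin) 39.3 and 182.3 with all 6 probe sets from 1.07 to 2.75, and the syndecan SDC4 752.3 and 2769.7. LAMB1 read 367.6 and 152.6 and AGRN (agrin) 834.5 and 238.9, the last with a dim probe set at 1.19. Junction genes gave 2 of 16 higher, the claudins CLDN4 (359.7 and 1006.5) and CLDN1 (224 and 466), and 4 lower, ANK3, PPL, PKP4 and TJP3.

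Among 29 mucin and surface glycoprotein genes 6 were lower and 2 higher, with a median of -0.06. MUC1 read 1814.7 and 679.5, with all 3 probe sets lower (-2.21 to -1.40), AGR2, the isomerase that folds mucins, 1078.7 and 167.9, and the tetraspanin TSPAN8 556.1 and 185.6. CEACAM6 (57.2 and 148) and TFF1 (52.8 and 120.4) were the higher pair. Of 13 ductal transcription factor genes above the filter, KLF4 (264.9 and 669.6) and GATA6 (83.6 and 214.9) were higher and SPDEF and KLF5 (902.8 and 444.9) lower, the second KLF5 probe set being at 0.09.

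Retinoid genes gave 6 of 17 lower and 3 higher. RARRES1 apart, the lower members were the nuclear receptors RXRA (869.9 and 139), RARG (332.1 and 136.9) and RARB (174.5 and 73.9), the corepressor NRIP1 (206.6 and 57.1) and the retinaldehyde dehydrogenase ALDH1A1 (1019.2 and 427.7). Its paralog ALDH1A3 read 267.4 and 1121 and was among the higher members, with RDH11 and PLAAT4. The list median was -0.18, but 0.09 with the mean of all probe sets or without the filter. In the insulin-like growth factor axis, IGFBP3 and HTRA1 were lower and IRS1 (68 and 168.4) higher among 11 members.

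TGF-beta and BMP genes gave 5 of 26 higher and 4 lower, with a median of 0.08, where 10.5% and 12.7% of all genes were higher and lower. The higher ones were FST (42.3 and 218.4), ID3 (435 and 1818), ID2 (142 and 470.2), BAMBI (399.2 and 965.2) and PMEPA1 (127.4 and 270.6), and the lower ones the signal carriers SMAD2 (611.3 and 172.7) and SMAD4 (192.4 and 72.1), the receptor TGFBR2 (570.9 and 231.6) and the ubiquitin ligase SMURF1 (606.3 and 286.1).

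Of the 35 lists described, that of mitotic genes had the most lower members: 22 of 47 were 2-fold lower and 0 higher, with a median of -0.96 against -0.03 over all genes. ASPM, a spindle pole protein, read 424.3 and 66.6, the kinetochore protein CENPF 542.3 and 92.3, HMMR 545.7 and 112.7 and the condensin subunit SMC4 1083.5 and 240.2. MKI67, the proliferation antigen Ki-67, read 951.2 and 231.8, and its 4 probe sets lay between -2.57 and -1.68. Cyclin A2 (CCNA2, 668.4 and 211.1), PLK1 (855.7 and 337) and CDC20 (1597 and 768.6) were lower by less. None of the 22 was among the 30 genes past the 8-array limma test.

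Genes of DNA replication and the G1/S step did not share that pattern, with 5 of 49 higher, 5 lower and a median of -0.03. Over all genes 10.5% were higher and 12.7% lower. PCNA read 2236.2 and 2149.5 (-0.06), MCM2 2226 and 2186.8 (-0.03) and RRM2 2828.2 and 3637.6 (0.36). CDKN1A, CDC25A (108.6 and 334.5), CDK6, ORC6 and E2F1 (75.9 and 176.7) were the higher members, and ORC3, POLA1, ORC2, MCM6 and RB1 the lower ones.

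Chromatin regulators had 19 of 53 members lower and 1 higher, with a median of -0.79. Beside CDK19, the largest were PHIP (316.9 and 50.2), the deacetylase HDAC4 (204.3 and 40.7) and the methyltransferases SETD2 (140.6 and 28.8) and NSD2 (250.4 and 60.5). KDM6B, a demethylase gene that inflammatory signals induce, was the higher one (58.5 and 171.7). Splicing factors had 8 of 45 lower and 1 higher, SNRNP70 (1197.7 and 2409.5), with a median of -0.39. SF3B3 read 989.4 and 149.7 with a second probe set at -0.98, DHX15 1912.1 and 374.7 and MBNL1 665.5 and 103.8. Of 21 ribosomal protein genes 1, RPL10A, was 2-fold lower, but all 21 were below 0, from -1.17 to -0.18 with a median of -0.30, a sign that quantile normalization took to 0.00.

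NRF2 targets, the antioxidant genes, had 7 of 25 members lower and 1 higher, with a median of -0.61. The drug exporter ABCC3 read 1087.5 and 289.1, the aldo-keto reductase AKR1B10 8345.3 and 3181.7, TKT of the pentose phosphate path 8868.9 and 4328.4, and NFE2L2, the NRF2 gene itself, 1658.9 and 577.3. AHR target genes gave 3 of 8 lower, with ALDH3A1 at 1678 and 412 and CYP1B1 at 834.3 and 393.5, and 1 higher, IL1B.

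Genes of sterol and fatty acid synthesis gave 5 of 23 lower and 0 higher. The lower members were SREBF1, ACACA (1005.5 and 249.2, the second probe set at 0.27), FASN (1528.5 and 394.8), SCD (4390.1 and 1345.5) and INSIG1 (231.2 and 94.1, another probe set at 0.55). On the sterol side, SREBF2 (-0.99) and HMGCS1 (probe sets at -0.83 and -1.11) lay near the 2-fold line. Of the 23 members, 8 were above 0. Glycolysis and hypoxia genes gave 3 of 31 higher, ADM, PFKFB3 (128.7 and 416.5) and ALDOC (889.5 and 2225.6), and 3 lower, the glucose transporter SLC2A1 (1293.9 and 441.1), P4HA1 and NDRG1. Both shares are below those over all genes, 10.5% and 12.7%.

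**Figure D3:**
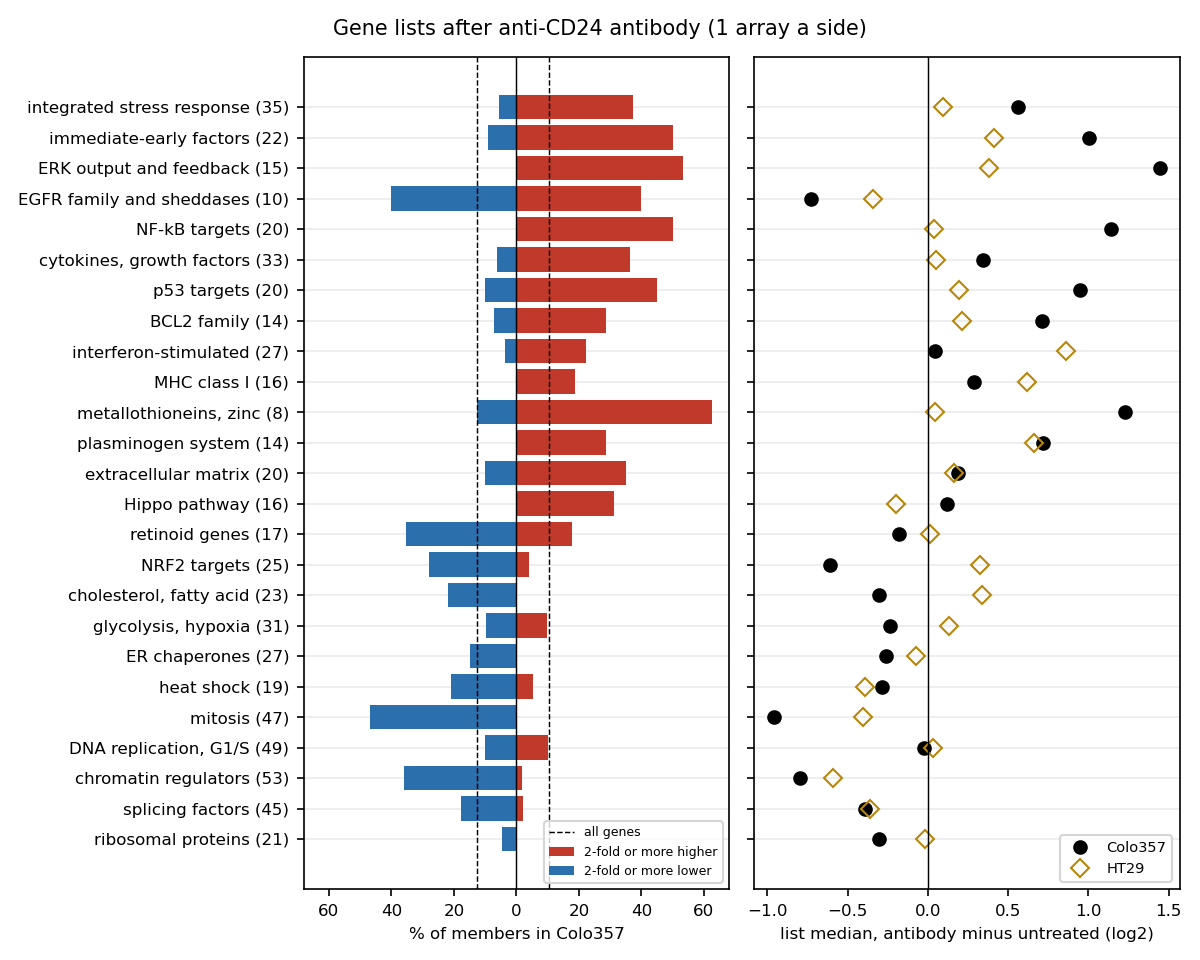
In the left panel, bars give the % of each list's members above the filter (number in brackets) that were at least 2-fold higher (red, to the right) or lower (blue, to the left) in antibody-treated Colo357, and dashed lines the shares over all genes (10.5% and 12.7%). The right panel gives the list median of antibody minus untreated in log2 for Colo357 (black dots) and for the same genes in HT29 (open diamonds); of the 25 lists drawn, which are part of those described, ERK output and metallothioneins lie furthest right in Colo357 and mitosis furthest left.

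The differences followed gene span, the distance on the genome from a gene's first to last base in RefSeq. The median span was 13.0 kb for genes 2-fold higher, 77.9 kb for genes 2-fold lower and 28.0 kb for the rest. In the decile of genes with the shortest span, 23.0% were higher and 2.20% lower, with a median difference of 0.47. In the decile with the longest, 2.49% were higher and 35.3% lower, with a median of -0.71. The median difference was lower in each successive decile. Genes whose probe sets were all 2-fold higher or all 2-fold lower gave 13.7 kb and 84.5 kb.

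The order held at every level of signal. In the brightest of 3 equal classes of genes, 15.7% of the 3 shortest deciles and 2.65% of the 3 longest were higher, and 3.16% and 20.4% were lower. In the dimmest class the values were 21.7% and 3.33% higher and 4.64% and 29% lower. After quantile normalization the shortest decile had 25.5% higher and 2.20% lower and the longest 3.23% and 34.8%. The chromosomes with the shortest and longest median span were 19, at 15.03 kb with 16.6% of genes higher and 4.88% lower, and 13, at 56.4 kb with 1.79% and 21.4%. Those between did not all keep that order: chromosome 6, at 20.6 kb, had 10.7% higher and 16.2% lower, and chromosome 1, at 30.9 kb, 12.6% and 11.3%.

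The same order was seen outside Colo357, and in clones that had no antibody. In antibody-treated HT29, 12.3% of 6692 genes were past 2-fold (5.04% higher and 7.31% lower), and from the shortest to the longest decile the share higher went from 10.8% to 0.923% and the share lower from 2.28% to 25.5%. Against untreated HT29, the median of the shortest decile was 0.53 and that of the longest -0.37 in the clone with 1 CD24 shRNA vector, and 0.55 and -0.39 in the first clone with 2. The second clone with 2 vectors gave 0.18 and 0.15. The GFP shRNA clone, in which 21.5% of 6700 genes were past 2-fold (14.4% higher and 7.06% lower), gave 0.09 and 0.44, the long genes being the higher ones. Poly-A spikes read 1.91 times as high as in untreated HT29 in the antibody array, 2.99 and 1.69 times in the first clones of each kind, 1.48 times in the second 2-vector clone and 0.964 times in the GFP clone. Their part in the span order was not tested.

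**Figure D4:**
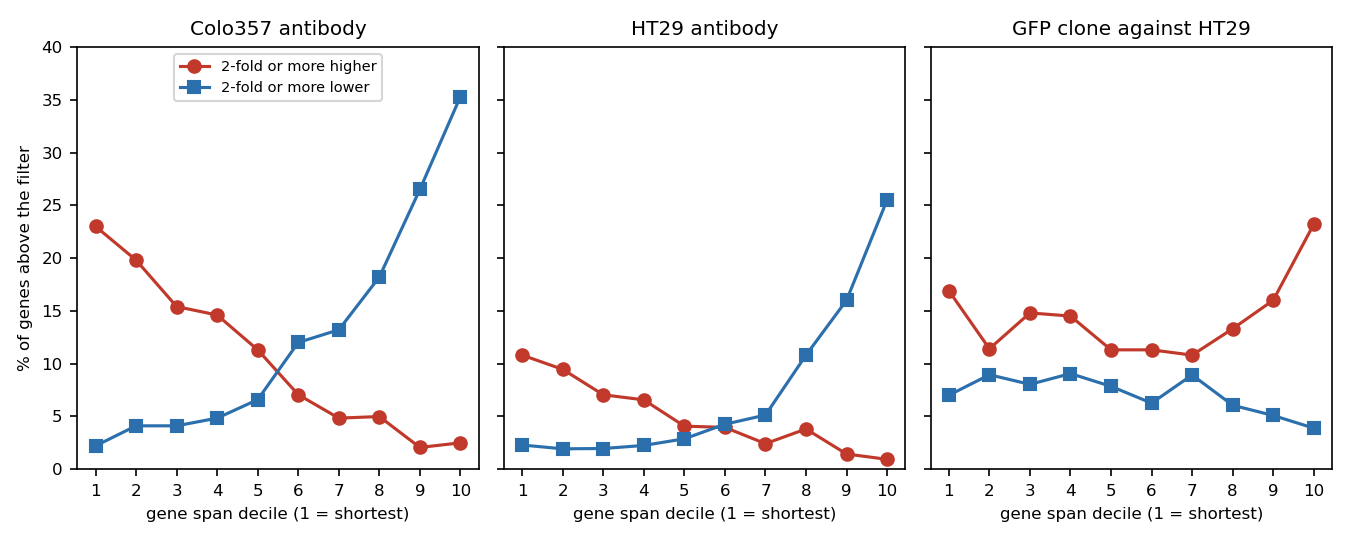
The x axis gives deciles of genes by genomic span from the shortest (1) to the longest (10), with the same limits in each panel, and the y axis the % of genes above the filter that were at least 2-fold higher (red circles) or lower (blue squares). In Colo357 with antibody the red share goes from 23.0% to 2.49% and the blue from 2.20% to 35.3%, HT29 with antibody shows the same order, and the GFP clone against HT29 does not.

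Span bears unequally on the gene lists. Immediate-early factors had a median span of 6.41 kb, NF-kB targets 7.21 kb and p53 targets 11.9 kb, while chromatin regulators had 84.3 kb and the EGFR family 86.9 kb. When each gene's difference was taken from the median of its span decile, a measure chosen after the data were seen, the list medians were 0.67 for immediate-early factors, 0.95 for NF-kB targets, 0.70 for p53 targets, 1.12 for ERK output and 0.59 for the stress response. Mitosis stood at -0.85, NRF2 targets at -0.62 and splicing factors at -0.46. Chromatin regulators moved from -0.79 to -0.40. Ribosomal protein genes, which are short, moved from -0.30 to -0.77.

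The antibody was also given to HT29, where 6117 genes lay above the filter in both pairs. Of the 605 genes 2-fold higher in Colo357, 98 were so in HT29, which is 16.2% of the Colo357 genes and 34.8% of 282 in HT29. Of the 747 genes lower in Colo357, 244 were lower in HT29, which is 32.7% of the Colo357 genes and 57.3% of 426 in HT29. Over all genes above the HT29 filter, 5.04% were higher and 7.31% lower in HT29. In Colo357 the shares over all genes were 10.5% and 12.7%. The log2 differences correlated at 0.54 across genes, which are not independent and share the span order. The lower side held the larger shared portion of these counts, and it also held more genes in each line alone. The difference between the sides was not tested.

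**Figure D5:**
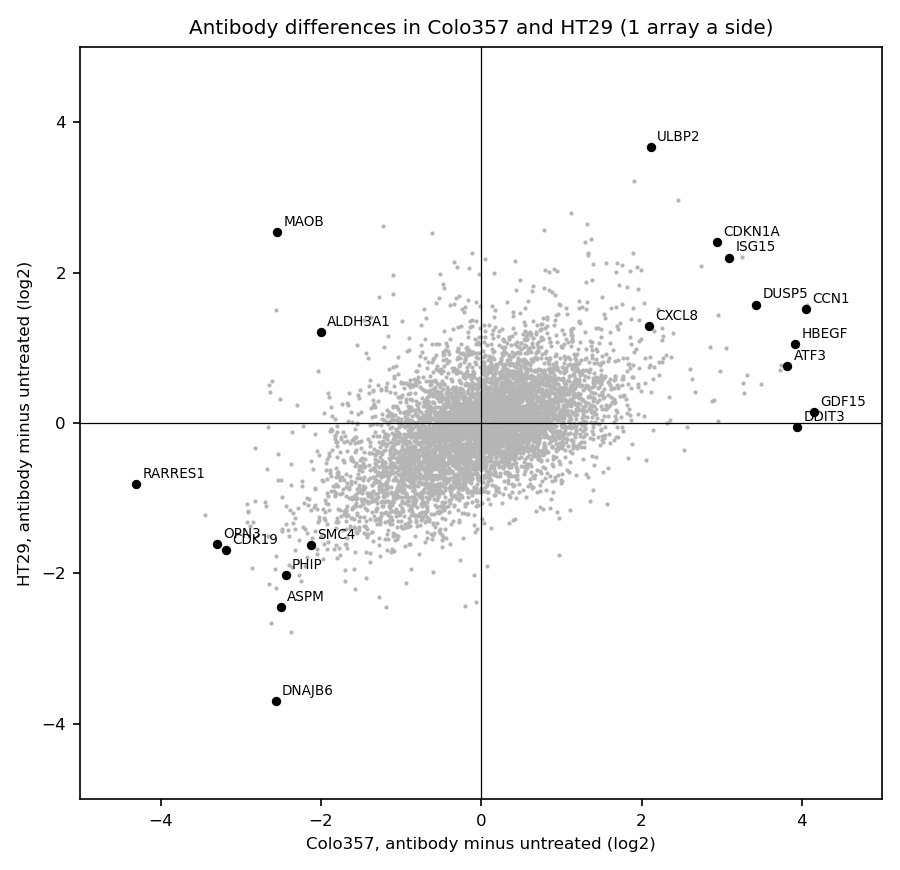
Each point is 1 of 6117 genes above the filter in both pairs, with antibody minus untreated in Colo357 on the x axis and in HT29 on the y axis (log2, 1 array a side). ULBP2, CDKN1A and ISG15 lie high on both axes, GDF15 and DDIT3 near 0 in HT29, and MAOB and ALDH3A1 low in Colo357 and high in HT29.

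Some stress and cytokine genes with large differences in Colo357 were within 2-fold in HT29. GDF15 read 874.1 and 966.6 there (0.14), and DDIT3 differed by -0.05, PPP1R15A by 0.29 and ATF3 by 0.76. TNFAIP3 (41.4 and 26.7, -0.49), IL1B (28 and 25.3, -0.11) and TNF (3.3 and 7.3, 0.38) lay below the HT29 filter. Their small differences there are those of dim signals. Others were past 2-fold there: CXCL8 (1.29), ICAM1 (1.51) and HBEGF (1.05) were higher, and INHBE was lower (-1.06). INHBE read 13.3 and 1.2, also below the HT29 filter. Further genes were higher in both lines: the values in Colo357 and HT29 were 4.05 and 1.51 for CCN1, 3.43 and 1.57 for DUSP5, 2.94 and 2.41 for CDKN1A, 3.10 and 2.20 for ISG15 and 2.12 and 3.67 for ULBP2. Lower in both were PHIP (-2.44 and -2.03), ASPM (-2.50 and -2.45), DNAJB6 (-2.56 and -3.69), SF3B3 (-2.65 and -2.14) and MBNL1 (-2.57 and -1.94).

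The limma contrast of the Colo357 difference minus the HT29 difference, from the 8-array fit, called 0 of 6787 genes (0.0%) at an adjusted p under 0.05. At an unadjusted p under 0.05 there were 31 genes with a positive contrast and 36 with a negative one. The smallest adjusted p, 0.0954, was shared by IGFBP3, at -3.17 in Colo357 and 2.03 in HT29, where it read 2.2 and 39.9, and by the amine oxidase MAOB, at -2.54 and 2.54. For GDF15 the difference was 4.01 (SE 1.21) with an adjusted p of 1.00. After quantile normalization 2 genes passed and with a pseudocount of 1, 1 did. A gene high in one line and level in the other is therefore not shown to differ between them. The second IGFBP3 probe set was level in HT29 (-0.07), and the gene lay below the HT29 filter.

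The 4 arrays of both lines, fitted by limma with the line as a block, gave 78 genes that rose with antibody (1.15% of 6787) and 165 that fell (2.43%). Both antibody arrays share the span order and the higher poly-A spikes, which the block does not remove. Their part in these calls was not tested. Of the genes that rose and fell, 73 and 156 were also past 2-fold in Colo357 in that direction, against 10.5% and 12.7% of all genes. The Colo357 arrays are part of the fit, so this overlap was partly fixed in advance and is no independent support. G0S2 rose by 2.82 (adjusted p 0.0256), CCN1 by 2.78 (0.0259), DUSP5 by 2.50 (0.0244), HBEGF by 2.48 (0.0407) and THBS1 by 1.80 (0.0341). Among those that fell, the log2 difference was -2.44 for CDK19 (0.0221), -2.45 for OPN3 (0.0240), -2.34 for ATXN10 (0.0333) and -2.05 for SREBF1 (0.0333). GDF15 (0.107), DDIT3 (0.132), IL1B (0.166) and RARRES1 (0.0552) did not pass.

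In this fit 7 of 47 mitotic genes fell and none rose, among them ASPM at -2.47 (SE 0.32, adjusted p 0.0107), SMC4 at -1.87 (SE 0.33, 0.0256) and CENPF at -1.88 (SE 0.36, 0.0284). Chromatin regulators had 8 of 53 that fell, with PHIP at -2.23 (0.0159), and splicing factors 3 of 45: SF3B3, MBNL1 and DHX15. Of 34 stress response genes 1 fell, SLC7A11 (-1.64, adjusted p 0.0297), and none rose. Over all genes in this fit 2.43% fell and 1.15% rose, so the stress response counts lie near those shares. Among 26 interferon-stimulated genes 5 rose, led by ISG15 (2.65, adjusted p 0.0107), and both NKG2D ligand genes rose, ULBP2 by 2.89 (0.0122) and MICB by 2.16 (0.0244). CDKN1A rose by 2.67 (0.0101), ICAM1 by 1.86 (0.0259) and CXCL8 by 1.69 (0.0333), and EGFR fell (-1.50, adjusted p 0.0456). With 4 arrays only 1 residual degree of freedom was left, and no gene passed after quantile normalization or without the filter.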

How the data were processed

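RNA of 8 cell samples was measured on 1 Affymetrix array each. The authors' deposited table holds probe set intensities on a linear scale, MAS5 values per the submitters' processing notes. Their version and background step were not given in these sources. Every array had a mean of about 250.1 after trimming 2% from each end, so the intensities were used as deposited. They were converted to log2(intensity + 10), 10 being near their 25th percentile (10.1), which understates differences of dim genes.

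Of 22277 probe sets, 62 are controls. The platform annotation gave 1 symbol to 19064 probe sets, and 1043 with several symbols were not named. Symbols were updated through RefSeq (GRCh38.p14), for 19052 by Entrez ID. The brightest single-symbol probe set, by the mean of 8 arrays, stood for a gene. Genes were kept when their mean over the pair compared exceeded the median non-control probe set. Spans and promoters came from the RefSeq tables of that assembly, whose build the probe annotation does not share by coordinates, so no array coordinates were used.

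Within Colo357, with 1 array a side, genes at 2-fold or more were counted with no test. limma 3.58.1 in R 4.3.3 (lmFit and eBayes, two-sided, Benjamini-Hochberg at 0.05) was fitted over 8 arrays with 7 group means, and over the 4 arrays of both lines with line as a block. Only the Colo357 contrast of the fit over 8 arrays was tried on simulated data, with the same spread for every gene. P-values measure only the spread between these samples, which may be technical, and the number of arrays limits the precision.

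The comparison and the 48 gene lists (1171 of 1342 symbols had a value) were chosen with earlier results of these data known. Named are CD24, the 15 largest differences each way, the 15 each way whose smallest probe set difference was largest, up to 6 members of a described list, and members needed to state a count or a test; 1 gene of this rule and 1 list are not reported here. Genes whose probe sets differed in sign or by over 1 are given with that range for the members most relied on. Other pseudocounts (1 and 32), normalizations, probe set rules and filters were tried. Scripts ran in Python 3.11.15 with pandas 2.3.3.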

Additional observations from a re-analysis of the deposited data

Results flagged for a closer look

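The antibody difference pointed in opposite directions in the 2 lines, at 2-fold or more in each, for 15 genes. The limma contrast between the lines passed for none of them at an adjusted p under 0.05, and with 1 array per line and condition the difference has no replicate behind it. Each value here is the Colo357 log2 difference minus that of HT29.

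Positive gaps were found for FJX1 (2.40), the ribosome biogenesis factor RRP12 (2.64) and ZNF551 (2.26). FJX1, for instance, read 61.5 untreated and 172.7 with antibody in Colo357, against 126.7 and 56.4 in HT29.

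Negative gaps were found for the amine oxidase MAOB (-5.08), RGCC (-4.06), APOL1 (-3.85), the aldehyde dehydrogenases ALDH3A1 (-3.21) and ALDH3B1 (-2.82), the urea cycle enzyme ASS1 (-3.06), ANXA9 (-2.94), the cell envelope protein PPL (-2.83), the nicotinamide methyltransferase NNMT (-2.79), CYFIP2 (-2.59), RAB26 (-2.32) and the clock gene PER2 (-2.23). MAOB read 547.8 and 85.7 in Colo357 and 42.6 and 295.9 in HT29. ASS1 read 6736.3 and 3145.8 in Colo357 and 133.9 and 552.2 in HT29.

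List medians differed in sign between the lines for NRF2 targets, where the Colo357 median minus the HT29 median was -0.94 (-0.61 against 0.33), and for sterol and fatty acid synthesis, where it was -0.64 (-0.30 against 0.34). Neither difference was tested.

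Outside the gene measurements, the poly-A spike controls read 3.09 times as high, by the median of 24 probe sets, on the antibody-treated Colo357 array as on the untreated one.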

How the results depend on the processing

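Of 218 genes under the naming rule, 178 kept their direction and their side of 2-fold under every alternative run, as did 26 of 35 described list medians in direction and size, and the exceptions that reversed are given here. Single alternatives moved the 720 and 867 genes 2-fold higher and lower, and the 123 and 191 with all probe sets so, as follows. Without probe sets of the _x_at and _s_at classes, which can read several transcripts, they were 445, 503, 24 and 34; with a filter at the 75th percentile 397, 361, 57 and 81; without a filter 1189 genes were higher. The 30 genes past the 8-array limma test became 89 after quantile normalization, 12 with a pseudocount of 1 and 0 without a filter (308 higher and 259 lower at an unadjusted p under 0.05). The 243 past the limma test over both lines became 137 with a pseudocount of 1, 84 with the 75th percentile filter, 0 after quantile normalization (678 and 741 unadjusted) and 0 without a filter (772 and 1040). The contrast between lines gave 2 after quantile normalization and 1 with a pseudocount of 1.

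Signs turned as follows. Median centring gave 0.000937 for CD24, for which the mean of probe sets gave 0.12 and removal of _x_at 0.57, against -0.14 for its brightest probe set. It gave 0.023 for tRNA synthetases, at 0.046 without _x_at, 0.42 without both classes and 0.046 at the 75th percentile. NRG1 was -1.02 with a pseudocount of 1, -0.13 as a mean and -0.24 without both classes. Retinoid genes were at 0.086 as means and at 0.092 without both classes, without a filter and at the 75th percentile. Without _x_at, the metallothionein list was at -1.07, MT1G at -0.72, ARNT at -0.39 and HNRNPA1 at 0.026. These values held without both classes, except that of the list (-2.12). The list then rested on SLC30A1 and MTF1, or on SLC30A1 alone, with no metallothionein above the filter. MT1G and HNRNPA1 rested on probe sets below it. Without both classes, the EGFR family was at 1.77, MHC class I at -0.091, PHF3 0.45, PHLDA2 -0.90, ERBB3 0.48, EGFR 1.04, ERAP1 0.89, KLF5 0.093, MBNL1 0.39 and RPS6 1.20. Of these genes only KLF5 kept a probe set above the filter. The others, and NRG1, rested on dim ones, such as PHLDA2 at 16.4 and 4.1 and MBNL1 at 1.2 and 4.7. Ribosomal proteins were at 0.00 after quantile normalization, and the Hippo list at -0.094 without a filter. Relative to their span decile, MHC class I was at -0.13 and the IGF axis at -0.22. Apart from removed probe sets and genes, the cause was not tested.

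No paired analysis was possible because each Colo357 group has 1 array and no replicate numbers to pair by; the block in the fit over both lines is the cell line. Intensities near the floor, such as GDF15's second probe set, limit what dim probe sets can show.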
